A study of Rattus norvegicus with 4 samples.

Results

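Growth factor receptor tyrosine kinases are transmembrane proteins whose outer part binds a growth factor and whose inner part is a tyrosine kinase. Ligand binding brings the receptors together, the kinases phosphorylate one another, and adaptor proteins then carry the signal to the Ras-ERK cascade and, through PI3 kinase, to Akt1, a serine/threonine kinase of growth and survival. Fibroblasts answer platelet-derived, fibroblast, epidermal and insulin-like growth factors through these receptors, which makes the receptors part of the machinery that senses serum. The mRNAs described here are those of 7 receptors, Erbb2, Egfr, Fgfr1, Pdgfra, Pdgfrb, Met and Igf1r, and of Akt1. They were chosen as all probe sets to which the annotation of the array gives exactly 1 of these 8 gene symbols, and 17 of the 8740 probe sets of the array met this rule, for 8 of 4736 genes with a symbol of their own.

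The question of the study was how Omomyc, a dominant interfering form of the Myc dimerization domain, changes the response to serum of Rat1 cells, which are immortalized rat fibroblasts. Rat1-Omomer cells were stably infected with a retrovirus for Omomer, which is Omomyc fused to a tamoxifen-dependent part of the estrogen receptor, and Rat1-control cells with a control retrovirus, called Omomer and control cells here. Both cell lines were kept for 48 h in 0.1% serum with 4-OHT, the tamoxifen derivative that switches Omomer on, and RNA was taken at 90 min after the change to 10% serum or at 0 min. The labels place 4-OHT in the medium during starvation, while the methods add it only shortly before serum. One array of the type RG-U34A was hybridized for each of the 4 conditions, without replicates, so that the spread between cultures is unknown and no test was run. A transfection field of the labels gives the control vector for the Omomer 0 min sample and Omomyc for the control 90 min sample. Since title, source and description of both samples name the other cell line, the titles were followed, and every direction between the cell lines rests on them. In bulk RNA, fewer expressing cells and less mRNA per cell cannot be told apart.

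Each value is an average difference, the mean brightness of the perfect match over the mismatch probes of a probe set, on a linear scale on which values below 0 occur. Values were raised to a floor of 1048, which is 2 times a noise SD that was read from the negative values, before a ratio was taken. A ratio against a value under the floor is a bound, written "at least", and a probe set under the floor on both arrays has no ratio. A probe set was called at a ratio of 3-fold, the threshold of the methods. Values of different probe sets were not compared as levels. The trimmed means of the arrays lay between 2503 and 2505, and the 3' over 5' ratios of the beta-actin and Gapdh control probe sets between 0.922 and 1.19. The Omomer 90 min array stood apart: over probe sets that passed the floor on every array, its log2 values had a Pearson's r of 0.787 with those of control cells at 0 min, while the r was 0.964 for the Omomer 0 min array and 0.911 for the control 90 min array. Its own values below 0 would set a floor of 1228. All 11 fibroblast marker genes were above the floor on every array (25 of 25 probe sets). Of 11 probe sets of epithelial markers 1 was above the floor at 90 min in each cell line and none at 0 min, and none of 3 endothelial or 4 skeletal muscle probe sets was above it on any array. Negative values included, the epithelial probe sets summed to -146 in Omomer and -522 in control cells at 90 min, and to -31 and -1004 at 0 min. Of 10 leukocyte probe sets, 1 was above the floor on each array, except for control at 0 min with 2. Myc, which serum induces in fibroblasts, had 7233 in Omomer and 4980 in control cells at 90 min, against 2307 and 1172 in the same cell lines at 0 min, by Y00396mRNA_g_at. Its other probe set, Y00396mRNA_at, had 159 in Omomer and 1171 in control cells at 90 min, and 534 and 222 at 0 min, and was above the floor only in control cells at 90 min.

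Myc and Max bind DNA at E-boxes, and the start regions of 2 members are shown for this motif. Table entries of RefSeq (build GRCr8), with 250 bases before and 50 after a gene start, were matched for 6 of the 8 members, which are Erbb2, Egfr, Pdgfra, Met, Igf1r and Akt1. The E-box CACGTG, which reads the same on both strands, was found in 6.42% of all 33469 windows and in 1 of the 6, that of Igf1r. The related CACGCG, searched on both strands, was found in 8.50% of all windows and again only in that of Igf1r among the 6, where the printed strand reads CGCGTG, without overlap of the 2 motifs. Igf1r is shown as the member that holds both motifs, in capitals, and Erbb2, whose window held neither, as a receptor with lower values at 90 than at 0 min in both cell lines. The windows are chr1:130959747-130960046, plus strand, for Igf1r and chr10:83907351-83907650, plus strand, for Erbb2.
Igf1r: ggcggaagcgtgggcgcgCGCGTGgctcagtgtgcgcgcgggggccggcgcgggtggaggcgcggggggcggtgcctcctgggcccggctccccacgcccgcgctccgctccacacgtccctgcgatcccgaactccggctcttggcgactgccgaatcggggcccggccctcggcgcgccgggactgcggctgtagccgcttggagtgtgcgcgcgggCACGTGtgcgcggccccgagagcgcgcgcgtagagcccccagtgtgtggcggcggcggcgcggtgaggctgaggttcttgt
Erbb2: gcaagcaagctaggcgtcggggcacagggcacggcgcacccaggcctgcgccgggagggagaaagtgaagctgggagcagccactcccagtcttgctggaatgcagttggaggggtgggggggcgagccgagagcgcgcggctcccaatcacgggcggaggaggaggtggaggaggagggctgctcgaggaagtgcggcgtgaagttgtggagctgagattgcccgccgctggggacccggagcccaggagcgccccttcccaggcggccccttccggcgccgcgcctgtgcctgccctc
The E-box of Igf1r starts 31 bases before the gene start. The share of G and C bases was 78% in the window of Igf1r and 71.3% in that of Erbb2. Over all windows its median was 51.7% and its 90th percentile 68.7%, and the motif shares were not matched for it. The windows of Akt1 and Met lie inside the annotated genes and are not shown. A motif match is a description of the sequence and not a site of binding.

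Of the 17 probe sets, 12 were above the floor on at least 1 array, and 6, of Fgfr1, Pdgfra, Igf1r and Akt1, on all 4. The other 5 lay between -469 and 623 on all arrays. In each of the 3 comparisons of the Omomer 90 min array with another array, 6 ratios were measured on both arrays and the others are bounds, whose true size is open. No member probe set passed 3-fold in Omomer over control cells at 0 min, where 0.251% of 3977 probe sets were called higher and 0.503% lower, nor in control cells at 90 over 0 min, where 1.93% of 3985 were called higher and 1.81% lower. In Omomer cells at 90 min over control cells at 0 min, the comparison of the study, 3 of 12 probe sets with a ratio were at least 3-fold lower, those of Erbb2, Akt1 and Fgfr1, against 9.95% of all 4220, and none was higher, against 2.80%. With a floor of 2096, or with values above the floor on both arrays only, this count was 1, that of Akt1. Set against the control array of 90 min, the count was 2 of 11, without Erbb2, against 8.57% of 4048 lower, and none higher, against 2.22%, and with values above the floor on both arrays only it was 1. Over the same cells at 0 min, 2 of 11 were lower, those of Erbb2 and Akt1 (1, without Erbb2, under either of the stricter rules named for the comparison of the study), against 9.65% of 4209, and 1 was higher, of Fgfr1, against 2.90%. The serum response, 90 over 0 min, could be set between the cell lines for 9 member probe sets. It was at least 3-fold lower in Omomer than in control cells for 2 of them, Akt1 rc_AA799664_at and Fgfr1 S54008_i_at (1 under either stricter rule), against 9.80% of 3766 probe sets, and higher for none, against 3.64%, while Fgfr1 D12498_s_at had a difference of 1.28 on the log2 scale the other way. All comparisons with a member past 3-fold share the Omomer 90 min array, and whether these few members differ from the shares of all probe sets was not tested. The shares are those with the floor of 1048, and none is given for the stricter rules.

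**Figure D1:**
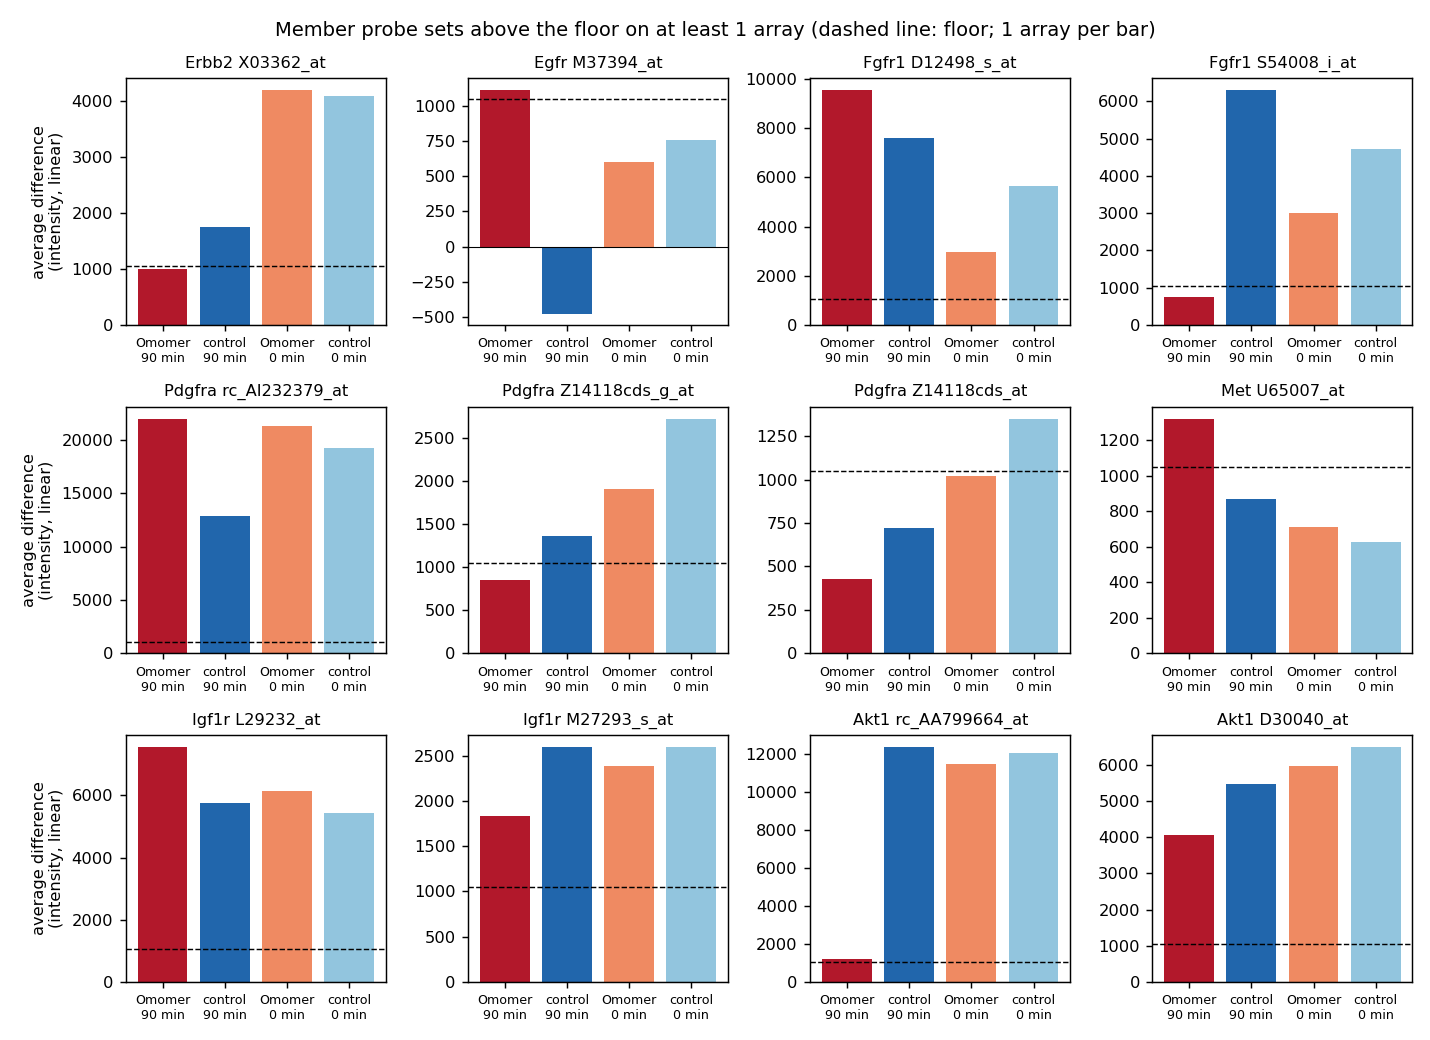
Average difference (y axis, intensity on a linear scale, each panel with its own scale) of the 12 member probe sets above the floor on at least 1 array, with 1 bar for each array and a dashed line at the floor of 1048. Erbb2 is low in both cell lines at 90 min (1001 and 1743), Akt1 rc_AA799664_at is low only on the Omomer 90 min array (1177), and the 2 probe sets of Fgfr1 go apart on that array (9551 and 756).

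Erbb2, the receptor of the EGF family that has no ligand of its own and signals in pairs with the others, was the member with the lowest ratio to 0 min in control cells. Its only probe set, X03362_at, had 1001 in Omomer cells and 1743 in control cells at 90 min, against 4199 in Omomer and 4103 in control cells at 0 min. The values of both cell lines at 90 min were thus below those of both at 0 min. In control cells the value at 90 min was 2.35-fold lower than at 0 min, and 3.45% of the 3248 probe sets measured on both arrays had a lower ratio. Such shares leave out probe sets with a bound, so that decreases to under the floor are not counted. In Omomer cells, where the value at 90 min was under the floor, it was at least 4.01-fold lower than before serum. Against the control 0 min array this bound was 3.91-fold, and with a floor of 2096 both bounds were under 3-fold. The cell lines were close at 0 min, with a ratio of 1.02, and at 90 min Erbb2 was lower in Omomer cells by at least 1.66-fold. The difference between the serum responses was at least 0.77 on the log2 scale. The SD between probe sets of 1 gene was 0.73 for single ratios of the Omomer 90 min array. This SD holds over control at 90 min and over its own 0 min array. A difference between ratios is another measure, so the sizes were not compared. Egfr, the receptor of EGF and HB-EGF and a partner of Erbb2, was near the noise throughout. Its probe set M37394_at had 1114 in Omomer and -476 in control cells at 90 min, and 602 and 756 in the same cell lines at 0 min. The value of 1114 passes the common floor but not the floor of 1228 from the noise of its own array.

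Akt1, which phosphorylates targets of growth and survival after recruitment to the membrane by PI3 kinase products, was measured by 2 probe sets that gave different answers on 1 array. The probe set rc_AA799664_at had 1177 in Omomer and 12345 in control cells at 90 min, and 11453 in Omomer and 12019 in control cells at 0 min. One array was thus low and the other 3 differed by little. At 90 min the value in Omomer cells was 10.5-fold lower than that in control cells, and 0.356% of 2812 probe sets measured on both arrays had a lower ratio. That share leaves out probe sets under the floor on either array, whose decreases may be larger. The value of 1177 is under the floor from the noise of its own array, with which the ratio is a bound of -3.33 on the log2 scale. The probe set D30040_at had 4073 in Omomer and 5483 in control cells at 90 min, and 5979 and 6500 in the same cell lines at 0 min. It was also lowest on the Omomer 90 min array, but by 1.35-fold against control cells at 90 min and by 1.47-fold against the same cells at 0 min. On the log2 scale the ratios of the probe sets differed by 2.96 in Omomer over control cells at 90 min, by 0.28 in control cells at 90 over 0 min and by 0.05 between the cell lines at 0 min.

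The probe set rc_AA799664_at is 1 of 1744 made from expressed sequence tags (EST) with identifiers of the 5 stems rc_AA89, rc_AA87, rc_AA85, rc_AA80 and rc_AA79, called the 5 EST series here. This grouping was made with the values of the arrays known, so that its contrast with other probe sets is a description and no independent evidence. On the Omomer 90 min array, 27.2% of 892 probe sets of these series with a ratio were at least 3-fold lower than in control cells at 90 min, against 3.30% of 3156 others. Without the series, 1 of 10 member probe sets with a ratio was at least 3-fold lower in this comparison, and 2 of 11 were in Omomer cells at 90 min over control cells at 0 min, against 3.30% of the others in the first and 4.36% of 3257 in the second. In Omomer cells at 90 over 0 min 1 of 10 was lower, against 3.70% of 3243, and in the serum response of Omomer minus control cells 1 of the 8 left was lower, against 3.93% of 2853. The genes whose values over the 4 arrays were most like those of this probe set, by the root mean square difference of centred log2 values among 2120 probe sets, were Itm2b at 0.0565 and Psmd11 at 0.0761, both measured by the 5 EST series. For D30040_at the nearest genes were Gnb2 at 0.0343, outside the series, and Man2b1 at 0.0409, within it. What part the series has in the value of Akt1 was not tested.

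**Figure D2:**
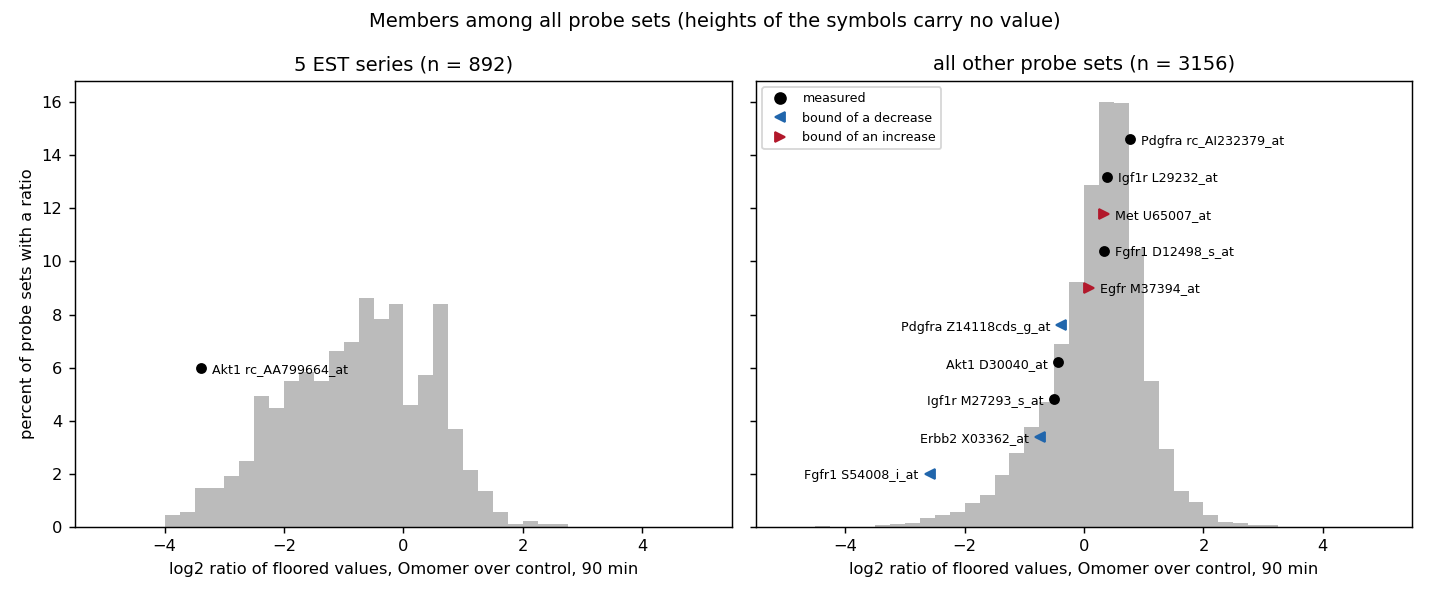
Share of probe sets (y axis, percent of those with a ratio) by log2 ratio of floored values in Omomer over control cells at 90 min (x axis), for the 5 EST series on the left and all others on the right, with the members as symbols whose height carries no value. Akt1 rc_AA799664_at stands at -3.39 in the left panel and Fgfr1 S54008_i_at at a bound of -2.59 in the right one, while the ratios or bounds of the other member probe sets lie between -0.73 and 0.77.

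Fgfr1, a receptor of the fibroblast growth factors including Fgf2, gave 2 probe sets that moved together on 3 arrays and apart on that of Omomer cells at 90 min. At 0 min both were lower in Omomer cells, D12498_s_at with 2944 in Omomer and 5664 in control cells, and S54008_i_at with 2992 in Omomer and 4714 in control cells. These ratios, 1.92-fold and 1.58-fold lower, were under 3-fold, and 1.67% and 4.06% of 3475 probe sets measured on both arrays had lower ones. In control cells at 90 min the probe sets had 7585 and 6298, each 1.34-fold higher than at 0 min. In Omomer cells at 90 min D12498_s_at had 9551 and S54008_i_at 756, which is under the floor. By D12498_s_at Fgfr1 was 3.24-fold higher than before serum and 1.26-fold higher than in control cells at 90 min. By S54008_i_at it was at least 2.85-fold lower than before serum, and lower than in control cells at 90 min by at least 6.01-fold. Over control cells at 0 min it was at least 4.50-fold lower, a bound that was under 3-fold with a floor of 2096. The direction of Fgfr1 in Omomer cells at 90 min therefore differed with the probe set, while that at 0 min did not. Both lie outside the 5 EST series. The remaining probe set, AF000144_at, was under the floor on all arrays, with 510 in Omomer and 178 in control cells at 90 min, and 417 and 244 at 0 min. The suffix _i marks a set with fewer unique probes than the design asked for, and _s one whose probes may match more than 1 transcript. The genes nearest to D12498_s_at over the 4 arrays were Azin1 at a root mean square difference of 0.142, outside the series, and Slc34a1 at 0.173, within it.

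The platelet-derived growth factor receptors bind the mitogens that platelets add to serum. Pdgfra was lower in control cells at 90 than at 0 min by each of its probe sets with a ratio. The probe set rc_AI232379_at had 22001 in Omomer and 12868 in control cells at 90 min, and 21288 in Omomer and 19258 in control cells at 0 min. Here control cells at 90 min were the low array, 1.50-fold lower than at 0 min, and Omomer cells were 1.71-fold higher than control cells at 90 min. The probe sets of the coding sequence gave another order. Z14118cds_g_at had 857 in Omomer and 1366 in control cells at 90 min, and 1905 and 2729 in the same cell lines at 0 min. It was lower at 90 than at 0 min in both cell lines, by at least 1.82-fold in Omomer cells and with a log2 ratio of -0.998 in control cells, and lower in Omomer than in control cells at both times, by at least 1.30-fold at 90 min and by 1.43-fold at 0 min. Z14118cds_at had 429 in Omomer and 720 in control cells at 90 min, and 1019 and 1351 at 0 min, of which only the last is above the floor. The remaining probe set, rc_AI137657_at, was below 0 on every array. None of these ratios passed 3-fold. The genes nearest to rc_AI232379_at were Eif2b4 at a root mean square difference of 0.0124 and Gstm5 at 0.0240. Pdgfrb, the receptor of PDGF-BB, was under the floor on all arrays by its only probe set, Z14119cds_at, with 101 in Omomer and 376 in control cells at 90 min, and 623 and 555 at 0 min, so that no ratio could be had.

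Igf1r, the receptor of the insulin-like growth factors, differed little between 90 and 0 min in control cells. The probe set L29232_at had 7557 in Omomer and 5770 in control cells at 90 min, and 6147 and 5446 in the same cell lines at 0 min. The probe set M27293_s_at had 1832 in Omomer and 2599 in control cells at 90 min, and 2386 and 2596 at 0 min. In control cells the log2 ratio of 90 over 0 min was 0.08 by the first and 0.0017 by the second. In Omomer over control cells at 90 min the first was 1.31-fold higher and the second 1.42-fold lower, a difference of 0.89 on the log2 scale. The SD of single ratios about the mean of their gene was 0.73 in this comparison. A difference between probe sets is another measure, so the sizes were not compared. The nearest genes were C8b at 0.0147 and Nucb1 at 0.0241 for L29232_at, and Fcgrt at 0.0240 and Mogs at 0.0383 for M27293_s_at. Met, the receptor of hepatocyte growth factor, was above the floor on 1 array. Its probe set U65007_at had 1321 in Omomer and 869 in control cells at 90 min, and 712 and 624 at 0 min. The difference at 90 min, at least 1.26-fold, is within 1 SD of the noise, and both values at 0 min were under the floor. The other probe sets of Met, U65007_g_at and Z46374cds_s_at, were under the floor on all 4 arrays.

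**Figure D3:**
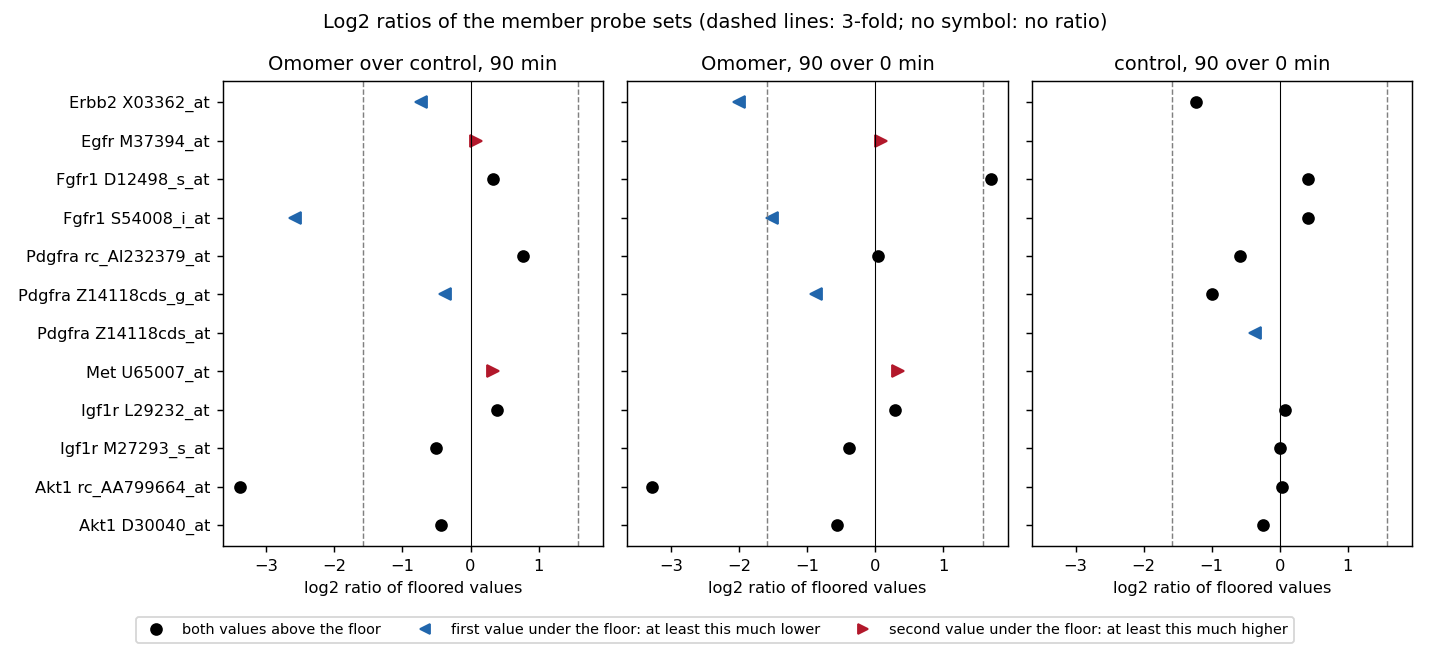
Log2 ratios of floored values (x axis) of the 12 member probe sets (y axis) in Omomer over control cells at 90 min, Omomer cells at 90 over 0 min and control cells at 90 over 0 min, with dashed lines at 3-fold. Triangles are bounds and dots are ratios of values above the floor. In control cells all ratios lie between -1.24 and 0.42. They lie between -3.39 and 0.77 in Omomer over control cells at 90 min, and between -3.28 and 1.70 in Omomer cells at 90 over 0 min.

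Different probe sets of 1 gene on the same array show how far its ratios differ with the probes, but do not repeat a condition. In control cells at 90 over 0 min, the 2 probe sets of highest mean value of Fgfr1, Pdgfra, Igf1r and Akt1 differed by 0.0034, 0.42, 0.08 and 0.28 on the log2 scale. In Omomer over control cells at 90 min the same pairs differed by 2.92, 1.16, 0.89 and 2.96, with opposite signs for all but Akt1, where those of Fgfr1 and Pdgfra include a bound. Across 389 genes with 2 or more probe sets that passed the floor on every array, the SD within a gene was 0.73 in the second comparison and 0.31 in the first, and 0.29 between the cell lines at 0 min. Outside the 5 EST series, for 320 genes, it was 0.61, 0.31 and 0.29. The median log2 ratio of the members was -0.38 in Omomer over control cells at 90 min, where 6 of 11 were measured on both arrays, against 0.18 for all 4048 probe sets, and -0.15 without the 5 EST series, against 0.32. The value of -0.38 is itself a bound of a decrease, that of Pdgfra Z14118cds_g_at. The value of -0.15 lies midway between this bound and a bound of an increase, that of Egfr, so the true medians are open. In control cells at 90 over 0 min the median was -0.12 for the members and -0.07 for all 3985. Between the cell lines at 0 min it was -0.12 for the members and 0.01 for all 3977.

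The other genes of the pathway were taken from lists by role. Of other receptor tyrosine kinases, 1 of 14 probe sets with a ratio was at least 3-fold higher in Omomer than in control cells at 90 min and none lower, against 2.22% and 8.57% of all probe sets. Of the 14 ratios 7 were measured on both arrays, and 6 are bounds that could only be higher, since the control value was under the floor. The median log2 ratio was 0.67, against 0.18 over all probe sets, and rests in part on these bounds. This was Ddr1, a receptor of collagen, with 4613 in Omomer and 1366 in control cells at 90 min, and 387 and 3406 at 0 min, by 1 of its probe sets, S77585_s_at. In control cells at 90 over 0 min none of 13 passed 3-fold, against 1.93% higher and 1.81% lower of all probe sets. Ryk, a Wnt receptor, had 1439 in Omomer and 3022 in control cells at 90 min, by a probe set of the 5 EST series.

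Of ligands of the member receptors, 4 of 15 probe sets with a ratio passed 3-fold upwards in control cells at 90 over 0 min and none downwards, against 1.93% and 1.81% of all probe sets. Of these 15, 8 had a ratio only through their value at 90 min and could only be higher, and the median log2 ratio of 1.08 is itself such a bound. Among the 6 measured on both arrays, 2 passed 3-fold upwards, those of Nrg1 and Pdgfa. Nrg1, a ligand of receptors that pair with Erbb2, had 1734 in Omomer and 5231 in control cells at 90 min, and 1168 and 1361 at 0 min, by U02322_s_at. At 90 over 0 min its log2 ratio was 0.57 in Omomer and 1.94 in control cells, and it was 3.02-fold lower in Omomer than in control cells at 90 min. Lower values in Omomer cells at 90 min were also seen with U02320_s_at, with 1275 in Omomer and 3316 in control cells at 90 min, 2.60-fold lower, and values under the floor at 0 min. Pdgfa, a ligand of Pdgfra, had 1782 in Omomer and 3821 in control cells at 90 min, against 242 and 1228 at 0 min, by D10106_s_at. Hbegf, a ligand of Egfr that was named after its values were seen, had 24371 in Omomer and 20822 in control cells at 90 min, and 605 and 665 at 0 min, by L05489_at. Its other probe set, rc_AI059540_at, was below 0 on every array. By L05489_at it was at least 23.3-fold higher at 90 than at 0 min in Omomer cells and at least 19.9-fold higher in control cells. In Omomer over control cells at 90 min, 1 of 17 ligand probe sets was at least 3-fold lower, that of Nrg1, and none higher. Of all probe sets 8.57% were lower and 2.22% higher in this comparison.

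Of adaptors and enzymes next to the receptors, 4 of 19 probe sets with a ratio were at least 3-fold lower in Omomer than in control cells at 90 min and none higher, against 8.57% and 2.22% of all probe sets. Outside the 5 EST series 2 of 16 were lower, against 3.30% of 3156. The median log2 ratio of the list was 0.15 there, against 0.32 for all probe sets outside the series. Sos1, which loads Ras with GTP, and Grb10, an adaptor of the insulin and IGF receptors, are 2 of the 4 and were measured by the 5 EST series. Grb2, the adaptor that ties receptors to Sos1, had 1350 in Omomer and 6325 in control cells at 90 min by rc_AI170776_s_at, 4.69-fold lower. By its other probe sets, D49847_at and rc_AA801130_at, it was 1.65-fold and 1.64-fold higher. Ptpn1, a tyrosine phosphatase that acts on receptors, had 1965 in Omomer and 7632 in control cells at 90 min by rc_AI113289_s_at, 3.88-fold lower. By 2 more of its probe sets it was also lower, and by M33962_at and M33962_g_at 1.77-fold and 1.32-fold higher. Probe sets of Grb2 and of Ptpn1 thus gave opposite directions on this array. Neither the Ras-ERK cascade, with 9 probe sets, nor the PI3K-Akt branch without Akt1, with 17, had a probe set past 3-fold in this comparison. Among measured ratios of the cascade, Araf, a Raf kinase, was 1.71-fold higher and Map2k2, the kinase MEK2 that activates ERK, 1.61-fold lower by rc_AA957896_s_at. In the branch Eif4ebp1, an inhibitor of translation below mTOR, was 2.97-fold higher by rc_AI178828_i_at, 2.05-fold by U05014_g_at and, on the log2 scale, 0.57 higher by U05014_at. It was also higher in Omomer than in control cells at 0 min, by 1.69-fold, 1.50-fold and 0.42 on the log2 scale in the same order. In Omomer cells at 90 over 0 min its log2 ratios were 0.26, 0.23 and -0.0154. Rheb, the GTPase that activates mTOR, was 1.55-fold lower in Omomer than in control cells at 90 min by a probe set of the 5 EST series and 1.44-fold higher by rc_AI009605_at. Akt2, the closest relative of Akt1, had 1085 in Omomer and 1055 in control cells at 90 min, both near the floor.

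Of feedback inhibitors of receptor signalling, 5 of 10 with a ratio passed 3-fold upwards at 90 over 0 min in Omomer cells and 3 of 9 in control cells, against 2.90% and 1.93% of all probe sets, and none was 3-fold lower in either. These are few genes, 3 probe sets of Dusp1 and 1 each of Dusp5 and Errfi1 in Omomer cells, and 2 of Errfi1 and 1 of Dusp5 in control cells. Errfi1, an inhibitor that binds the kinases of Egfr and Erbb2, had 18009 in Omomer and 12715 in control cells at 90 min, and 779 and 2345 at 0 min, by rc_AI169756_s_at. By X07266cds_s_at it was 2.58-fold lower in Omomer than in control cells at 90 min. In Omomer over control cells at 90 min, 3 of 9 passed 3-fold upwards, against 2.22% of all probe sets. All 3 are probe sets of Dusp1, a MAP kinase phosphatase. By U02553cds_s_at it had 43122 in Omomer and 6787 in control cells at 90 min, and 4340 and 15893 at 0 min, so that it was lower at 90 than at 0 min in control cells and lower in Omomer than in control cells at 0 min. Dusp6, the phosphatase of ERK, had 6665 in Omomer and 18762 in control cells at 90 min by X94185cds_s_at.

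**Figure D4:**
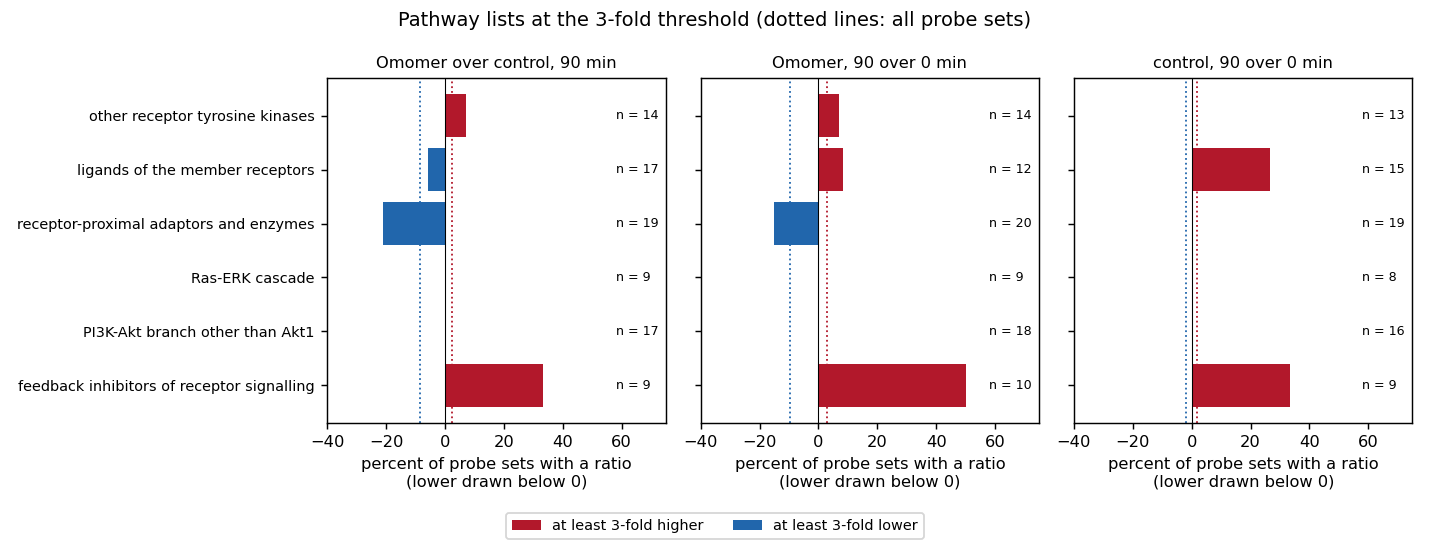
Percent of the probe sets with a ratio (x axis) in each pathway list (y axis, n given beside each bar) that were at least 3-fold higher (red, right of 0) or lower (blue, left of 0), in 3 comparisons with 1 array per condition, bounds included. Dotted lines are the shares over all probe sets, such as 2.22% higher and 8.57% lower in Omomer over control cells at 90 min. The Ras-ERK cascade and the PI3K-Akt branch have no bar in any of the 3 panels.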

How the data were processed

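Total RNA of 4 Rat1 samples, 1 for each cell line and time, was hybridized to Affymetrix RG-U34A arrays. The authors processed the scans with MAS 4 at default settings, and the deposited values are intensities (average differences) on a linear scale, which retain negative values and whose trimmed means per array are nearly equal. No genome build applies. With so few arrays, every ratio has unknown precision.

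From these values, log2 ratios were computed with a floor of 1048, 2 times the SD of the noise, which was taken from the median absolute value of all values below 0, scaled to an SD. The threshold was 3-fold, as in the methods. Of 8799 probe sets, 59 controls were left out, 7006 had 1 gene symbol, 308 several and 1426 none. No test was run, with 1 array per condition. Ratios were checked on simulated arrays with known folds. Folds were given only to probe sets far above the floor, so the check does not cover changes of members with values near it.

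The members, lists and alternatives were chosen with earlier results of these data known. Genes other than the members were named by rule, as the 2 highest and 2 lowest measured ratios of each list for the cell lines at 90 min and for serum in control cells, and the 2 genes nearest to a member, not all of which are printed. Myc was named as a check of serum induction. Hbegf, Grb10 and Sos1, and further probe sets of genes already named, were added after their values were seen. Lists cover other receptor tyrosine kinases, ligands, adaptors, the Ras-ERK cascade, the PI3K-Akt branch, feedback inhibitors and cell type markers. Sequences are from RefSeq, GRCr8. Python 3.11.15 with numpy 2.4.6, pandas 2.3.3 and matplotlib 3.10.9 was used.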

Additional observations from a re-analysis of the deposited data

Results flagged for a closer look

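For 4 member probe sets the value at 90 over 0 min lay in one direction in Omomer cells and in the other in control cells, with 1 array each, so that the difference was not tested. It is given as the log2 ratio of Omomer minus that of control cells. For Akt1 rc_AA799664_at it was -3.32, with a ratio of -3.28 in Omomer and 0.04 in control cells. For Fgfr1 S54008_i_at it was -1.93, with a bound of -1.51 in Omomer and 0.42 in control cells. For Pdgfra rc_AI232379_at it was 0.63, with 0.05 in Omomer and -0.58 in control cells. For Igf1r M27293_s_at it was -0.38, with -0.38 in Omomer and 0.0017 in control cells, whose values were 2599 at 90 min and 2596 at 0 min. Under quantile normalization the opposite directions were lost for Pdgfra rc_AI232379_at and Akt1 rc_AA799664_at, which were then lower at 90 than at 0 min in both cell lines. Pdgfra rc_AI232379_at had -0.18 in Omomer and -0.72 in control cells. Akt1 rc_AA799664_at had -3.10 in Omomer and -0.0055 in control cells. Of the 9 member probe sets with both ratios, 2 differed by at least 3-fold in the lower direction, Akt1 rc_AA799664_at and Fgfr1 S54008_i_at, against 9.80% of all 3766 probe sets and 3.93% of the 2853 outside the 5 EST series, and none in the higher, against 3.64%.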

How the results depend on the processing

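No paired analysis was possible because each condition has 1 array. Counts of members past 3-fold were computed under a floor of 524 or 2096 or of each array's own noise, with both values above the floor only, with median scaling, with quantile normalization, with MAS 4 folds taken in their difference form, at 2-fold, and with 1 probe set per member. No called ratio changed sign under any of them. Under median scaling, quantile normalization, a floor of 524, own floors and the difference form, all counts stayed within 1.5 times. With values above the floor on both arrays only, 1 member probe set, that of Akt1, passed 3-fold downwards on the Omomer 90 min array against each of the other 3 arrays, and 1 did for the difference of serum responses. With a floor of 2096 it was also 1 over control and over Omomer cells at 0 min and for the difference, since over control cells at 0 min the log2 bounds were then -0.97 for Erbb2 and -1.17 for Fgfr1. With 1 probe set per member, 1 was lower on the Omomer than on the control array of 90 min, and 1 for the difference. At 2-fold, 1 was lower in control cells at 90 over 0 min, and 1 higher for the difference. The printed shares of all probe sets hold for the floor of 1048 and the 3-fold threshold. Counts under other rules therefore have no share beside them and cannot be read as many or few. With own floors the bound of Erbb2 in Omomer at 90 min over control cells at 0 min was -1.74 in log2 and that of Akt1 over control cells at 90 min -3.33. The number of arrays and the noise near the floor limit every statement on Erbb2, Egfr and Met.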
